A study of Mus musculus with 12 samples.

Results

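The genes described here are the chaperones and co-chaperones of the mouse striatum, the proteins that fold other proteins and hold damaged ones apart. They were chosen by name. All protein-coding genes whose symbol starts with Hspa, Hspb, Hsp90, Hsph, Hspd, Hspe, Dnaja, Dnajb, Dnajc or Cct and a number or letter were taken, with Bag1 to Bag6 and the heat shock transcription factors Hsf1 and Hsf2. Of 89 such genes, 82 had at least 10 counts in at least 3 of the 12 libraries, out of 55487 genes listed and 21309 tested. All 82 passed the filter of the test. The 7 genes below the minimum were Cct8l1, Dnajb7, Dnajb8, Dnajc5b, Dnajc5g, Hspb7 and Hspb9.

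Poly(A) RNA of striatal tissue was sequenced from 12 mice, 3 in each of 4 genotypes. HD mice were heterozygous for the zQ175 neo-deleted knock-in, an Htt allele with an expanded CAG repeat that is driven by the mouse gene's own promoter and models Huntington's disease. cGAS-KO;HD mice were double mutants that carried this knock-in and the cGAS knockout. cGAS-KO mice carried only the knockout of cGAS, the sensor of cytosolic DNA upstream of STING, and WT mice were C57BL/6J controls. The sources used here give no age, sex or litter of the mice, no design of the cGAS allele and no background strain of the mutants. The design text asks whether loss of cGAS changes the disease of the knock-in mice.

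Hsp70 proteins (the Hspa family) bind exposed stretches of unfolded proteins in a cycle driven by ATP. J-domain proteins (Dnaja, Dnajb, Dnajc) bring clients to Hsp70 and start its ATP hydrolysis, and Bag and Hsp110 proteins (Hspa4, Hspa4l, Hsph1) release the nucleotide again. Hsp90 finishes the folding of kinases and receptors, and the ring-shaped CCT chaperonin folds actin and tubulin. Hspd1 and Hspe1 form the chaperonin of mitochondria, and the small Hspb proteins hold clients without ATP. Much of this set can be induced by HSF1, and several of its members are known from cell and yeast models to hold back aggregates of expanded polyglutamine.

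Library totals lay between 59195327 and 72765623 counts, and the members took 1.19% to 1.25% of the counts in HD and cGAS-KO;HD libraries together, against 1.04% to 1.12% in cGAS-KO and WT libraries. Levels are given as CPM, read counts scaled by TMM to a common library size. On that scale the members summed to 11621 to 11928 CPM in HD and 11704 to 12164 CPM in cGAS-KO;HD libraries. The sums were 11051 to 12352 CPM in cGAS-KO and 10600 to 10644 CPM in WT libraries. The highest was that of cGAS-KO replicate 3, so the cGAS-KO group overlapped both groups with the knock-in. Library cGAS-KO replicate 3 stood apart: transcripts of the mitochondrial genome made up 11.5% of its total (5.30% to 9.03% elsewhere), and its 6 markers of cortical projection neurons summed to 1014 CPM (118 to 661 CPM elsewhere). Within its group, WT replicate 1 had low cortical markers (122 CPM, against 564 and 661 CPM in WT replicates 2 and 3). Its choroid plexus markers were high there (1899 CPM, against 141 and 70.1 CPM). Those markers varied in every group. They summed to 275 to 2012 CPM in HD, 98.6 to 1205 CPM in cGAS-KO;HD and 217 to 925 CPM in cGAS-KO libraries. Cortical markers summed to 118 to 193 CPM in HD and 169 to 277 CPM in cGAS-KO;HD libraries. In cGAS-KO replicates 1 and 2 they were 281 and 167 CPM. The 10 markers of medium spiny neurons, the main neurons of the striatum, summed to 779 to 1643 CPM in HD and 1407 to 1432 CPM in cGAS-KO;HD libraries, against 2991 to 3686 CPM in cGAS-KO and 2409 to 3423 CPM in WT libraries. Every marker of both lists was above 0 in every library. Htt averaged 139 ± 7.48 CPM in HD against 173 ± 5.27 CPM in WT mice, and Cgas 0.777 ± 0.177 CPM in cGAS-KO against 1.41 ± 0.129 CPM in WT mice (SD, n = 3 each), and these 2 groups did not overlap for Cgas. In cGAS-KO;HD libraries Cgas measured 1.15, 1.15 and 0.798 CPM, against 1.13, 1.07 and 1.26 CPM in HD libraries, with overlap (log2 change -0.16 ± 0.23 SE, adjusted p = 0.856). Whole-gene counts of Cgas therefore do not check the label of the double mutants. Xist was high in 4 of the 6 libraries with the knock-in and in 2 of the 6 without it.

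Per kilobase of exon, Hsp90ab1, the constitutive cytosolic Hsp90, was the most abundant member at 492 CPM per kb over the 12 libraries. Hspa8, the constitutive cytosolic Hsp70, followed at 419 CPM per kb and Hsp90aa1, the inducible cytosolic Hsp90, at 296 CPM per kb. Below these 3 genes the level dropped to 95.4 CPM per kb for Hsp90b1, the Hsp90 of the endoplasmic reticulum, and 65.6 CPM per kb for Hspd1, the mitochondrial Hsp60. Cct8 led the chaperonin subunits (55.0 CPM per kb), Dnaja2 the J-domain proteins (63.5 CPM per kb) and Bag1 the Bag proteins (56.5 CPM per kb). The strictly inducible Hsp70 genes were rare, with 1.70 CPM per kb for Hspa1a and 0.985 CPM per kb for Hspa1b. The small heat shock proteins of the Hspb family were rare as well, with Hspb8 highest at 6.37 CPM per kb.

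**Figure D1:**
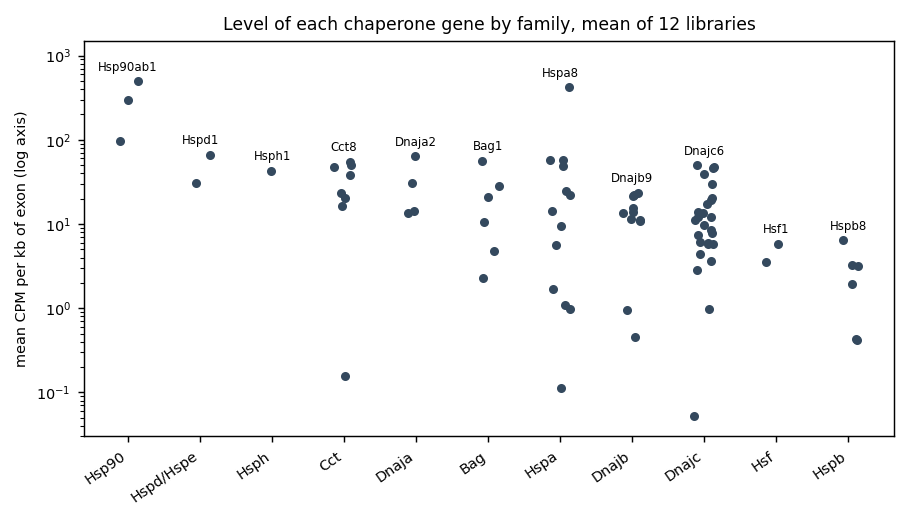
Mean level of each of the 82 chaperone genes over 12 libraries, in CPM per kilobase of exon on a log axis, by family; each point is 1 gene and the highest gene of a family is named. Hsp90ab1 (492), Hspa8 (419) and Hsp90aa1 (296 CPM per kb) lie far above all other members, while the Hspb family ends at 6.37 CPM per kb.

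Neither heat shock factor passed the test. Hsf1, the factor that turns on heat shock genes when unfolded protein builds up, measured 38.4, 38.4 and 38.03 CPM in HD libraries against 45.5, 41.8 and 42.0 CPM in WT libraries, with the HD libraries all below the WT libraries. Its log2 change was -0.17 ± 0.08 (SE, adjusted p = 0.29), which did not pass the threshold of 0.05 for the Benjamini-Hochberg adjusted p of edgeR's quasi-likelihood test over all genes tested. Without cGAS, Hsf1 measured 43.8, 40.7 and 40.8 CPM in cGAS-KO;HD against 39.0, 39.7 and 47.8 CPM in cGAS-KO libraries, and these groups overlapped (log2 change -0.01 ± 0.08 SE, adjusted p = 0.963). Hsf2, a related factor that can form mixed trimers with HSF1, measured 34.5, 34.8 and 31.8 CPM in HD against 30.4, 32.9 and 35.8 CPM in WT libraries (log2 change 0.03 ± 0.09 SE, adjusted p = 0.906). The activity of HSF1 is set by trimers and phosphorylation, which these counts do not measure.

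HSF1 trimers bind runs of the unit GAA in alternating orientation. The 300 bases around each gene start, 250 before and 50 after, were taken from RefSeq (GRCm38.p6) for 66 members, 7 of the 14 called below for the averaged knock-in effect among them (Cct4, Dnajc2, Dnajc12, Hsp90aa1, Hspa8, Hspa13 and Hspb2 were not searched), and scanned on both strands for GAANNTTC and its other phase TTCNNGAA, both of which read the same on either strand. Of the 66 members, 19 (28.8%) held a match, against 4587 of 27025 genes with a window (17.0%). Overlapping matches in both phases, a run of at least 3 units, were found in 4 members (Hspd1, Hspe1, Dnajb6 and Hsph1; 6.06%), against 179 of all genes (0.662%). These shares count genes and not separate promoters. The windows of Hspd1 and Hspe1 largely coincide, so the same run counts for both, and those of Hspa1a and Hspa1b are near-identical. The sequences below are shown because they belong to heat-inducible members and to the CCT subunits described next, with the GAA and TTC of each match in capitals; the promoters shown were picked after their values were seen. A match is a string in the window and not a measured binding site.
Hspd1, the shared promoter with Hspe1, is printed on the minus strand at chr1:55087883-55088182 and shares 285 of its 300 positions with the window of Hspe1:
Hspd1: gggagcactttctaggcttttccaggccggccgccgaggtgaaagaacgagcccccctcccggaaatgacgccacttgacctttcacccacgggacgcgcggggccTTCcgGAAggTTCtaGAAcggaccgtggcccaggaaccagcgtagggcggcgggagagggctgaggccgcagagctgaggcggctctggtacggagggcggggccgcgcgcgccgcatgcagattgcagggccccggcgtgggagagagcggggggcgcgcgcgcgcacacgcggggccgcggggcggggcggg
Hspa1a and Hspa1b lie on the minus strand at chr17:34972107-34972406 and chr17:34959189-34959488, and their windows agree at 296 of 300 bases (98.7%):
Hspa1a: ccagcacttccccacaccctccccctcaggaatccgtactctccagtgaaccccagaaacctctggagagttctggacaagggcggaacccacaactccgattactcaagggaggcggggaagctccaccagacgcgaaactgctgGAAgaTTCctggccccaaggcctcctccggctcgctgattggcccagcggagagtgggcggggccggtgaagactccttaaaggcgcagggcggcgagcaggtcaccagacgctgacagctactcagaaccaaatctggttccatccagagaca
Hspa1b: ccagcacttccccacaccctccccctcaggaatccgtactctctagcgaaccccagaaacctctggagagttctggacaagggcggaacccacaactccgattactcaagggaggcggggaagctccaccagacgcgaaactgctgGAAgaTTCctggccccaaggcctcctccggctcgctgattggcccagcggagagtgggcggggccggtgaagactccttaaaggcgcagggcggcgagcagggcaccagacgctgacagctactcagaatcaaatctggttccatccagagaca
Bag3, on the plus strand at chr7:128523333-128523632, has its match after the start:
Bag3: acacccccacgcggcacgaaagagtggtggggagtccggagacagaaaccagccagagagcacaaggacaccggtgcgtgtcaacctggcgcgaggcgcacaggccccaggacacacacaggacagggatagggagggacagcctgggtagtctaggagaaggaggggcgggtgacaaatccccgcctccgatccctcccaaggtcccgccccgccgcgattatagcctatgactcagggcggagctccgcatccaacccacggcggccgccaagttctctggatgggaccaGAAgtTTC
Of the CCT subunits with a window, Cct2 (minus strand, chr10:117063326-117063625), Cct5 (minus strand, chr15:31601797-31602096) and Cct6a (plus strand, chr5:129787106-129787405) held a match, and Cct3, Cct6b, Cct7 and Cct8 did not:
Cct2: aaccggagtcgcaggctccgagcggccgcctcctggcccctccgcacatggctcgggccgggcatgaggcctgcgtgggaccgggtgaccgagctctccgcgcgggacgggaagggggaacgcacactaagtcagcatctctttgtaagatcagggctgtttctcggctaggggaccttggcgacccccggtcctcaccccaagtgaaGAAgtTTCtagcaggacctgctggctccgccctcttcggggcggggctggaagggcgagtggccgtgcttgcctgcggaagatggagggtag
Cct5: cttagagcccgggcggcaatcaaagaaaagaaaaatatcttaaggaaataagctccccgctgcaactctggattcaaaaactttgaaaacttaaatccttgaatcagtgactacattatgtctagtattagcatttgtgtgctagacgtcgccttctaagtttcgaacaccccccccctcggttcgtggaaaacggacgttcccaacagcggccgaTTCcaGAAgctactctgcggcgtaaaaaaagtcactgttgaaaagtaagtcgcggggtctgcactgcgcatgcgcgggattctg
Cct6a: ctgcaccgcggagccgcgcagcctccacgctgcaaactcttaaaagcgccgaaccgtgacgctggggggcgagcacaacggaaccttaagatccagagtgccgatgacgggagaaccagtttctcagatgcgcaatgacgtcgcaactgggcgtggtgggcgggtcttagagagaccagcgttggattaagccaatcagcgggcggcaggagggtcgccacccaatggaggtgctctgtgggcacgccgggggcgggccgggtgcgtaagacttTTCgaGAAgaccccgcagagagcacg
In these windows the match lay 144, 139 and 134 bases before the start of Hspd1, 104 bases before the start of Hspa1a and of Hspa1b, 42 before that of Cct2 and 34 before that of Cct5. In Bag3 it lay 42 and in Cct6a 24 bases after the start. Whether HSF1 was bound there was not measured.

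The first comparison, HD against WT, shows the chaperone genes under the knock-in with cGAS present. Of the 82 members, 4 rose and none fell at an adjusted p under 0.05: Cct3, Cct4, Dnajc12 and Hsp90aa1. Over all genes tested, 1.43% were called higher and 2.67% lower. DESeq2's Wald test called 9 members higher and none lower. Shares of all genes called, here and below, are edgeR's. None is given for the Wald test, so its counts cannot be set against all genes. At an unadjusted p under 0.05, 18 members were higher and 4 lower, where 1861 and 2143 of the 21309 genes tested were. In 28 members every HD library lay above every WT library and in 7 below, where 14.6% and 13.1% of all genes tested had such an order. The median log2 change over the members was 0.06, against 0.01 over all genes tested and 0.02 over the 12089 genes of at least 5 CPM. The changes were small, with fold changes of 1.26 for Hsp90aa1, 1.29 for Cct3 and 1.33 for Cct4 and a log2 change of 0.58 for Dnajc12. The count of 4 depended on single libraries. It was 0 without WT replicate 2, WT replicate 3 or HD replicate 2. WT replicates 2 and 3 were also the WT libraries with the high cortical markers, whose part in this count was not tested. Without HD replicate 3 the count was 1, Hspa13, and the 4 above were all lost. It was 2 without HD replicate 1, cGAS-KO;HD replicate 2 or cGAS-KO;HD replicate 3. Without cGAS-KO replicate 3, which enters the fit through the shared estimate of the spread, it was 14. Leaving out WT replicate 1 and cGAS-KO replicate 3 together gave 15 higher and 5 lower members.

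The knock-in effect averaged over both cGAS genotypes, 6 HD and cGAS-KO;HD libraries against 6 cGAS-KO and WT libraries, was the comparison with most called members. It called 12 members higher (Bag2, Bag3, Cct3, Cct4, Cct5, Cct6a, Dnajc12, Dnajc15, Hsp90aa1, Hspa13, Hspa8 and Hspb2) and 2 lower (Dnajc2 and Dnajc8). That is 14.6% and 2.44% of the members, where 5.59% of all genes tested were called higher and 7.63% lower. Among the 12089 genes of at least 5 CPM, 7.26% were called higher and 9.77% lower, and among the 71 members of that level 15.5% and 2.82%. The 6 libraries with the knock-in did not overlap the 6 without it for Cct3, Cct6a, Dnajc12 and Hsp90aa1, which were higher, and Dnajc2, which was lower; 3.38% and 4.11% of all genes tested had such an order upwards and downwards. The total of 14 was 6 without HD replicate 2 or WT replicate 3, 7 without WT replicate 2 or cGAS-KO;HD replicate 3, 8 without HD replicate 3 or cGAS-KO;HD replicate 2, 9 without cGAS-KO replicate 1 or cGAS-KO;HD replicate 1, and 18 without WT replicate 1. With a term for Xist the calls of Bag2, Cct5, Dnajc15, Hspa8 and Hspb2 were lost. With no low-count filter those of Bag2, Cct5 and Hspb2 were lost, and with DESeq2 size factors that of Cct5. With a filter of 1 CPM in 3 libraries the call of Cct5 was lost, and Hspb2 was removed before the test. The calls of Cct3, Cct6a, Dnajc12 and Hspa13 held when any 1 of the 12 libraries was left out. In these bulk libraries, fewer cells of a type and less RNA per cell cannot be told apart. The medium spiny neuron markers given above moved with the knock-in. Cortical markers were higher in WT replicates 2 and 3 than in every HD library, and highest in cGAS-KO replicate 3. The part of either marker list in the chaperone changes was not tested.

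Of the 8 members of the Cct family, Cct3 and Cct4 rose in HD against WT, and Cct3, Cct4, Cct5 and Cct6a rose in the averaged comparison, where 1.43% and 5.59% of all genes tested were called higher. DESeq2's Wald test called 5 higher in each, Cct2, Cct3, Cct4, Cct6a and Cct8 in HD against WT and Cct3, Cct4, Cct5, Cct6a and Cct8 in the averaged comparison. CCT is a double ring of 8 different subunits (Tcp1 and the Cct2 to Cct8 products) that folds actin and tubulin, and it is known from yeast and cell models to bind the first exon of huntingtin. The rule takes in 7 of the ring genes and Cct6b, a variant subunit known from testis. All 8 had positive log2 changes in HD against WT, with a median of 0.24, and for the 7 ring genes every HD library lay above every WT library; of all genes tested, 52.0% were positive and 14.6% had such an order. The summed level of the 8 genes was 973 to 1019 CPM in HD libraries and 918 to 1000.3 CPM in cGAS-KO;HD libraries, against 812 to 924 CPM in cGAS-KO and 831 to 842 CPM in WT libraries. Library cGAS-KO replicate 3 had the lowest of these sums and, of the 12, the highest cortical marker sum and mitochondrial share; their part in the result was not tested.

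Cct3, the gamma subunit (ENSMUSG00000001416, chr3:88297116-88321767, plus strand), measured 118, 114 and 118 CPM in HD libraries against 94.6, 86.1 and 90.5 CPM in WT libraries, with no overlap and a log2 change of 0.37 ± 0.08 (SE, adjusted p = 0.0221). Without cGAS it measured 108, 107 and 121 CPM in cGAS-KO;HD against 105, 98.2 and 87.1 CPM in cGAS-KO libraries, again with no overlap (log2 change 0.21 ± 0.08 SE, adjusted p = 0.175). Averaged over both cGAS genotypes the knock-in effect on Cct3 was 0.29 ± 0.06 (SE, adjusted p = 0.00495). The knock-in libraries were the higher ones in both pairs. The delta subunit Cct4 (ENSMUSG00000007739, chr11:22990519-23003780, plus strand) measured 89.9, 99.96 and 103 CPM in HD against 73.0, 74.9 and 72.6 CPM in WT libraries, a change of 0.41 ± 0.09 (SE, adjusted p = 0.0312). In cGAS-KO;HD libraries Cct4 stood at 81.4, 88.3 and 92.7 CPM, against 88.7, 82.3 and 67.5 CPM in cGAS-KO libraries. These 2 groups overlapped, and cGAS-KO replicate 3 was the lowest of the 6 libraries (log2 change 0.14 ± 0.09 SE, adjusted p = 0.509). The calls of Cct3 and Cct4 in HD against WT were lost without WT replicate 2, WT replicate 3, HD replicate 2 or HD replicate 3, that of Cct3 also without HD replicate 1, and that of Cct4 also without WT replicate 1, cGAS-KO;HD replicate 2 or cGAS-KO;HD replicate 3. Over all alternatives the adjusted p of this comparison was 0.00138 to 0.126 for Cct3 and 0.0026 to 0.165 for Cct4.

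Cct6a, the zeta subunit, was higher with the knock-in in both cGAS genotypes. It measured 149, 142 and 139 CPM in HD against 120.0, 125 and 129 CPM in WT libraries, and 152, 148 and 150.0 CPM in cGAS-KO;HD against 137, 130.1 and 136 CPM in cGAS-KO libraries. Neither pair of groups overlapped, and the averaged knock-in effect was 0.18 ± 0.04 (SE, adjusted p = 0.0141). Of its exon length, 12.5% overlaps Psph on the opposite strand. Cct5, the epsilon subunit, measured 140.2, 149 and 149 CPM in HD against 123, 121 and 126 CPM in WT libraries, with an averaged effect of 0.19 ± 0.06 (SE, adjusted p = 0.0425). Of the 12 fits with a library left out, that call was kept in 2, those without cGAS-KO replicate 2 or cGAS-KO replicate 3. Cct2 (beta), Cct7 (eta) and Cct8 (theta) had averaged effects of 0.13 ± 0.05, 0.12 ± 0.05 and 0.15 ± 0.05 and were not called by edgeR (adjusted p = 0.0992, 0.169 and 0.0622). Cct2 measured 136, 135 and 145 CPM in HD against 121, 116 and 118 CPM in WT libraries, with no overlap (log2 change 0.23 ± 0.07 SE, adjusted p = 0.0808). Tcp1, the alpha subunit, lies outside the rule and measured 196, 190.5 and 193 CPM in HD against 163, 173 and 177 CPM in WT libraries (log2 change 0.18 ± 0.06 SE, adjusted p = 0.15). Cct6b summed to 83 counts in the HD group and 52 in the WT group, and its change of 0.54 ± 0.47 (SE, adjusted p = 0.599) was not called.

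**Figure D2:**
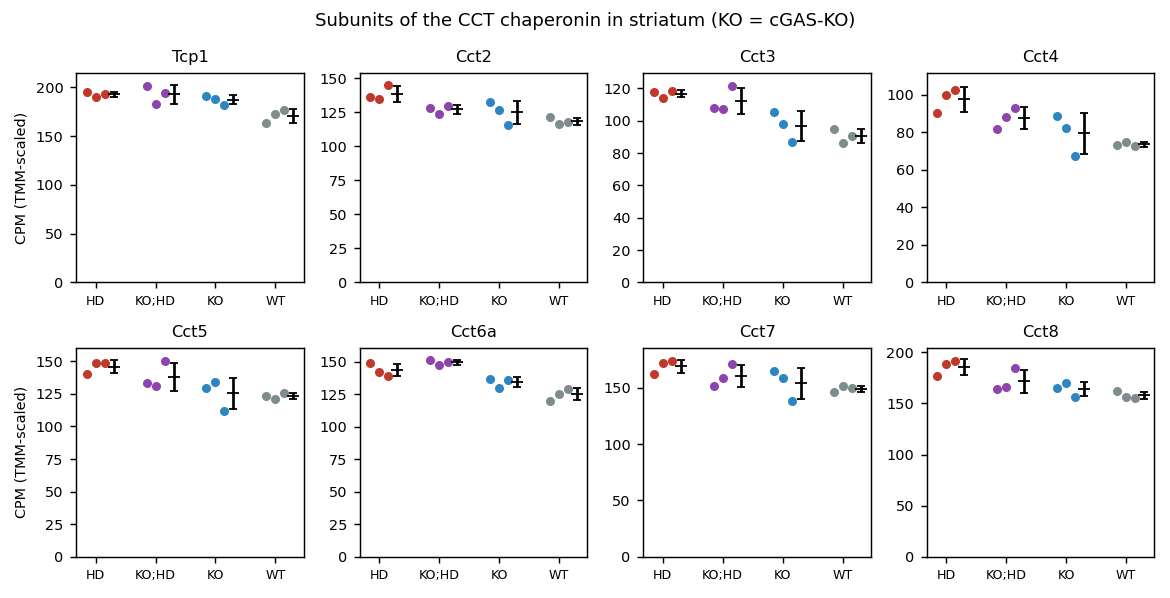
Level of the 8 ring subunits of CCT in each library, in TMM-scaled CPM (axis from 0); points are the 3 libraries of HD, cGAS-KO;HD (KO;HD), cGAS-KO (KO) and WT mice, and black bars their mean and SD. For Cct3 the 3 HD libraries sit between 114 and 118 CPM, all above the 3 WT libraries, and cGAS-KO replicate 3 (the third KO point) is the lowest KO library for every subunit shown but Cct6a.

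The partners that hand clients to CCT were counted from a list of 10 genes. These were the prefoldin subunits, the phosducin-like proteins with their relatives, and Tcp1, which is itself a ring subunit and not a partner. In HD against WT, 3 of the 10 rose and none fell, where 1.43% and 2.67% of all genes tested were called. At an unadjusted p under 0.05 there were 5 higher and none lower, where 1861 and 2143 of the 21309 genes tested were. DESeq2's Wald test called the same 3 genes. Vbp1, a prefoldin subunit, measured 58.2, 64.7 and 64.8 CPM in HD against 50.1, 45.4 and 45.5 CPM in WT libraries (log2 change 0.41 ± 0.09 SE, adjusted p = 0.0234). Pdcl, a phosducin-like protein needed for the assembly of G protein beta subunits on CCT, measured 31.0, 31.4 and 30.2 CPM in HD against 25.1, 22.4 and 23.1 CPM in WT libraries (log2 change 0.39 ± 0.07 SE, adjusted p = 0.0112). For its relative Pdcl3 the values were 30.8, 30.6 and 31.8 CPM in HD against 25.8, 25.0 and 23.7 CPM in WT libraries (log2 change 0.32 ± 0.07 SE, adjusted p = 0.0296). In all 3 genes the HD libraries lay above the WT libraries. In cGAS-KO;HD against cGAS-KO their changes were 0.13 ± 0.09, 0.17 ± 0.07 and 0.16 ± 0.07 for Vbp1, Pdcl and Pdcl3, and none was called (adjusted p = 0.525, 0.269 and 0.297).

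Among the Hsp90 genes the inducible one rose. Hsp90aa1 (ENSMUSG00000021270, chr12:110690605-110702728, minus strand) measured 1225, 1385 and 1261 CPM in HD against 1029, 1015 and 1022 CPM in WT libraries, a log2 change of 0.34 ± 0.08 (SE, adjusted p = 0.0383). The lowest HD library lay well above the highest WT library. In the absence of cGAS it measured 1188, 1189 and 1301 CPM in cGAS-KO;HD against 1067, 1083 and 1179 CPM in cGAS-KO libraries, with no overlap by a narrow margin (log2 change 0.14 ± 0.08 SE, adjusted p = 0.398). The averaged knock-in effect was 0.24 ± 0.06 (SE, adjusted p = 0.0155). In HD against WT the call was kept in 3 of 12 fits with a library left out (WT replicate 1, cGAS-KO replicate 2 or cGAS-KO replicate 3), and the averaged call in 10 of 12, being lost without HD replicate 2 or cGAS-KO;HD replicate 3. The call in HD against WT was also lost with a term for Xist. Hsp90ab1, its constitutive twin, measured 1540.0, 1456 and 1409 CPM in HD against 1408, 1405 and 1405 CPM in WT libraries (log2 change 0.06 ± 0.09 SE, adjusted p = 0.77). Hsp90b1 of the endoplasmic reticulum measured 388, 399.9 and 356 CPM in HD against 389.6, 354 and 341 CPM in WT libraries (log2 change 0.08 ± 0.08 SE, adjusted p = 0.678).

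Of a list of 15 Hsp90 co-chaperones, 1 rose in HD against WT and 1 in cGAS-KO;HD against cGAS-KO, and it was Ahsa2 in both, where 1.43% and 1.44% of all genes tested were called higher. DESeq2's Wald test called Ahsa1, Ahsa2 and Fkbp4 higher in HD against WT, and Ahsa2 higher and Fkbp5 lower in cGAS-KO;HD against cGAS-KO. Ahsa2 is a relative of Ahsa1, which speeds the ATP hydrolysis of Hsp90. It measured 30.8, 33.3 and 33.7 CPM in HD against 25.6, 23.4 and 21.7 CPM in WT libraries (log2 change 0.47 ± 0.09 SE, adjusted p = 0.0112), and 33.0, 30.2 and 36.2 CPM in cGAS-KO;HD against 25.8, 24.8 and 23.5 CPM in cGAS-KO libraries (log2 change 0.43 ± 0.09 SE, adjusted p = 0.0186). Neither pair overlapped. Averaged over cGAS genotypes, 4 of the 15 rose, Ahsa1, Ahsa2 and Fkbp4 among them, and 1, Fkbp5, fell, where 5.59% and 7.63% of all genes tested were called; the Wald test called 5 higher and 1 lower. Ahsa1 changed by 0.23 ± 0.05 (SE, adjusted p = 0.00991) and the immunophilin Fkbp4 by 0.30 ± 0.08 (SE, adjusted p = 0.0283). Fkbp5, an immunophilin that glucocorticoids induce, measured 25.5, 24.6 and 22.2 CPM in HD against 26.2, 29.9 and 34.0 CPM in WT libraries, and 21.6, 22.2 and 23.9 CPM in cGAS-KO;HD against 32.6, 31.3 and 26.4 CPM in cGAS-KO libraries. The knock-in libraries were the lower ones in both pairs, and the averaged effect was -0.37 ± 0.08 (SE, adjusted p = 0.00763).

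The Hsp70 family held 13 members, of which Hspa8 and Hspa13 rose in the averaged knock-in comparison and none fell. Over all genes tested, 5.59% were called higher and 7.63% lower. At an unadjusted p under 0.05, 4 of the 13 were higher and 1 lower, where 2822 and 3033 of the 21309 genes tested were. DESeq2's Wald test called Hspa4l higher and Hspa1b lower as well. Hspa8 (ENSMUSG00000015656, chr9:40800984-40810087, plus strand), the housekeeping Hsp70 that also strips clathrin from vesicles, measured 1885, 1900.5 and 1827 CPM in HD against 1482, 1489.8 and 1449 CPM in WT libraries. HD and WT libraries were far apart, yet the log2 change of 0.34 ± 0.12 (SE, adjusted p = 0.128) was not called in the shared fit. Without cGAS it measured 2249, 2027 and 1957 CPM in cGAS-KO;HD against 1584, 1604 and 2198 CPM in cGAS-KO libraries, and cGAS-KO replicate 3 lay among the cGAS-KO;HD libraries (log2 change 0.21 ± 0.12 SE, adjusted p = 0.39). The averaged effect was 0.28 ± 0.08 (SE, adjusted p = 0.0443). It was lost when any library but cGAS-KO replicate 3 was left out, and over all alternatives its adjusted p ran from 0.00014 to 0.109. Without cGAS-KO replicate 3 Hspa8 was called in HD against WT and in cGAS-KO;HD against cGAS-KO as well.

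Hspa13 (ENSMUSG00000032932, chr16:75745431-75767104, minus strand), an Hsp70 of the microsomes that lacks the client-binding domain, measured 71.8, 68.1 and 59.7 CPM in HD against 57.0, 53.5 and 56.1 CPM in WT libraries. It measured 72.5, 70.5 and 74.1 CPM in cGAS-KO;HD against 63.6, 58.6 and 62.4 CPM in cGAS-KO libraries. Neither pair overlapped, the changes were 0.26 ± 0.07 (SE, adjusted p = 0.0715) and 0.23 ± 0.07 (SE, adjusted p = 0.104), and the averaged effect was 0.25 ± 0.05 (SE, adjusted p = 0.00788). Hspa5 (BiP), the main Hsp70 of the endoplasmic reticulum, measured 255, 253 and 251 CPM in HD against 239.7, 196 and 213 CPM in WT libraries (log2 change 0.23 ± 0.11 SE, adjusted p = 0.299). Hspa4l and Hspa4, both Hsp110 proteins, had log2 changes of 0.23 ± 0.07 (SE, adjusted p = 0.0716) and 0.17 ± 0.07 (SE, adjusted p = 0.192), and Hspa9, the mitochondrial Hsp70, one of 0.15 ± 0.06 (SE, adjusted p = 0.22). For all 4 of these genes the HD libraries lay above the WT libraries, where 14.6% of all genes tested had such an order. None was called by edgeR, and DESeq2's Wald test called Hspa4l higher in HD against WT.

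The strictly inducible Hsp70 genes were not called by edgeR, and their log2 changes were negative in both knock-in comparisons. Hspa1b measured 1.99, 2.40 and 1.67 CPM in HD against 2.35, 2.91 and 2.97 CPM in WT libraries (log2 change -0.44 ± 0.29 SE, adjusted p = 0.449), and 1.71, 2.55 and 3.09 CPM in cGAS-KO;HD against 3.05, 2.78 and 5.66 CPM in cGAS-KO libraries (log2 change -0.64 ± 0.28 SE, adjusted p = 0.263). Library cGAS-KO replicate 3 had the highest value of the 12. The averaged effect on Hspa1b was -0.54 ± 0.20 (SE, adjusted p = 0.097), and DESeq2's Wald test and edgeR with a term for Xist called it lower. Hspa1a measured 5.03, 5.00 and 3.64 CPM in HD against 5.17, 5.41 and 5.48 CPM in WT libraries (log2 change -0.23 ± 0.24 SE, adjusted p = 0.663), with the HD libraries all below the WT libraries. Hspa1a and Hspa1b code for near-identical proteins, and how the authors counted reads that fit both is not given, so each value may hold reads of the other gene. Hspa1l, an Hsp70 known from testis, had the largest log2 difference of all members for the averaged loss of cGAS, -0.59 ± 0.37 (SE, adjusted p = 0.583), on 39 counts over the cGAS-KO;HD, 48 over the cGAS-KO, 68 over the HD and 69 over the WT group. Reads may also be shared between gene and pseudogene for Hspa8, Hsp90ab1, Hspd1 and Hspe1, which have processed pseudogenes, and their values carry the same limit. The nucleotide exchange factor Hsph1 measured 318, 307 and 274 CPM in HD against 286, 276 and 291 CPM in WT libraries (log2 change 0.07 ± 0.11 SE, adjusted p = 0.779). Hspd1 and Hspe1, the mitochondrial Hsp60 and its lid, had log2 changes of 0.28 ± 0.09 (SE, adjusted p = 0.122) and 0.15 ± 0.11 (SE, adjusted p = 0.518). Hspd1 measured 193, 199 and 187 CPM in HD against 167, 149 and 160.2 CPM in WT libraries, without overlap. A list of 9 further Hsp70 partners had none called in the averaged knock-in comparison, none at an unadjusted p under 0.05 and none by DESeq2's Wald test.

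**Figure D3:**
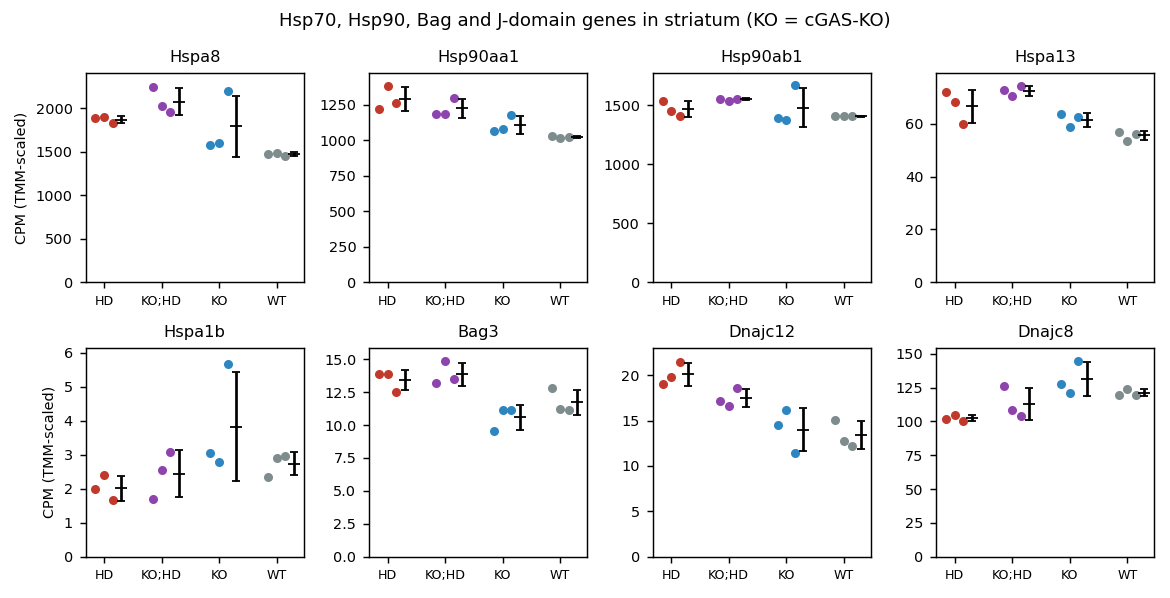
Level of 8 members in each library, in TMM-scaled CPM (axes from 0); points are the 3 libraries of HD, cGAS-KO;HD (KO;HD), cGAS-KO (KO) and WT mice, and black bars their mean and SD. Hspa8 lies between 1827 and 1900.5 CPM in HD and at 1449 to 1489.8 CPM in WT libraries, while 1 cGAS-KO library reaches 2198 CPM, and Dnajc8 is lower in HD than in WT libraries.

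The J-domain proteins, 41 of the 82 members, had small median log2 changes in HD against WT, at 0.04 for Dnaja, 0.04 for Dnajb and 0.03 for Dnajc genes. Of the 26 Dnajc genes, 2 were called higher and 2 lower in the averaged comparison, and no Dnaja or Dnajb gene was called. Over all genes tested, 5.59% were called higher and 7.63% lower, near the shares of the Dnajc genes. Dnajc12 (ENSMUSG00000036764, chr10:63382443-63410576, plus strand) is the co-chaperone of the aromatic amino acid hydroxylases, tyrosine hydroxylase among them. It measured 19.0, 19.8 and 21.4 CPM in HD against 15.1, 12.8 and 12.2 CPM in WT libraries, a log2 change of 0.58 ± 0.13 (SE, adjusted p = 0.0221). In cGAS-KO;HD libraries it measured 17.2, 16.6 and 18.6 CPM, against 14.5, 16.2 and 11.4 CPM in cGAS-KO libraries (log2 change 0.32 ± 0.13 SE, adjusted p = 0.203). Neither pair overlapped, and the averaged effect was 0.45 ± 0.09 (SE, adjusted p = 0.00555). The call in HD against WT was lost without WT replicate 2, WT replicate 3, HD replicate 2 or HD replicate 3.

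Dnajc15, a J-domain protein of the mitochondrial inner membrane, measured 85.1, 82.5 and 88.7 CPM in HD against 74.0, 70.1 and 66.6 CPM in WT libraries, with an averaged effect of 0.22 ± 0.06 (SE, adjusted p = 0.0348). That call was kept in 3 of 12 fits with a library left out, those without WT replicate 1, cGAS-KO replicate 3 or cGAS-KO;HD replicate 2. Dnajc2, which sits on ribosomes and assists nascent chains, fell. It measured 47.4, 44.5 and 36.0 CPM in HD against 50.4, 50.4 and 55.3 CPM in WT libraries, and 43.2, 47.9 and 47.5 CPM in cGAS-KO;HD against 56.1, 50.2 and 63.0 CPM in cGAS-KO libraries. All knock-in libraries lay below all others, and the averaged effect was -0.29 ± 0.08 (SE, adjusted p = 0.025), lost without WT replicate 3 or cGAS-KO;HD replicate 1. Dnajc8, a nuclear J-domain protein found with the spliceosome, measured 102, 105 and 101 CPM in HD against 119.9, 124 and 119.8 CPM in WT libraries, with an averaged effect of -0.23 ± 0.06 (SE, adjusted p = 0.0232) that was lost without WT replicate 2, WT replicate 3 or cGAS-KO;HD replicate 2. In cGAS-KO;HD libraries Dnajc8 stood at 126, 108 and 104 CPM, against 127, 121 and 145 CPM in cGAS-KO libraries, where 1 cGAS-KO;HD library overlapped the cGAS-KO group.

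The J-domain proteins best known for synapses and for polyglutamine were not called. Dnajc5, the cysteine string protein of synaptic vesicles, measured 317, 305 and 323 CPM in HD against 320.3, 339.6 and 344 CPM in WT libraries (log2 change -0.09 ± 0.07 SE, adjusted p = 0.542). Dnajc6, the auxilin that recruits Hsc70 to clathrin coats, measured 293, 288 and 329 CPM in HD against 271, 293 and 285 CPM in WT libraries (log2 change 0.10 ± 0.07 SE, adjusted p = 0.496). Dnajb6 and Dnajb2 are both known to hold polyglutamine proteins soluble in cell models. Dnajb6 measured 126, 123 and 119 CPM in HD against 117, 130.2 and 132 CPM in WT libraries (log2 change -0.04 ± 0.10 SE, adjusted p = 0.881). For Dnajb2 the HD libraries were the higher ones, at 98.4, 113 and 115 CPM against 98.1, 87.8 and 86.1 CPM in WT libraries (log2 change 0.27 ± 0.16 SE, adjusted p = 0.403). Dnajb2 also ranged widely without cGAS, at 79.1, 90.4 and 104 CPM in cGAS-KO;HD against 96.5, 103 and 62.5 CPM in cGAS-KO libraries. Dnajb1, the main inducible Hsp40, measured 53.6, 52.0 and 49.7 CPM in HD against 43.9, 47.4 and 44.8 CPM in WT libraries, with an averaged effect of 0.17 ± 0.07 (SE, adjusted p = 0.126). Dnaja1, a partner of Hspa8 in the cytosol, had a log2 change of 0.21 ± 0.08 (SE, adjusted p = 0.161) in HD against WT, and Dnaja2 one of 0.04 ± 0.08 (SE, adjusted p = 0.873). Dnajb9, a J-domain protein of the endoplasmic reticulum and the most abundant of the Dnajb family per kilobase (23.5 CPM per kb), measured 56.5, 57.2 and 51.8 CPM in HD against 56.7, 56.1 and 52.6 CPM in WT libraries, with overlap (log2 change 0.00 ± 0.18 SE, adjusted p = 0.997). Dnajb5 had the largest averaged log2 difference of the Dnajb family at -0.27 ± 0.13 (SE, adjusted p = 0.211).

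The Bag proteins, which release nucleotide from Hsp70, split. Bag3, which pairs Hsp70 with Hspb8 for the autophagy of aggregates, measured 13.9, 13.9 and 12.5 CPM in HD against 12.8, 11.2 and 11.1 CPM in WT libraries (log2 change 0.19 ± 0.10 SE, adjusted p = 0.339), and these groups overlapped. Without cGAS it measured 13.2, 14.9 and 13.5 CPM in cGAS-KO;HD against 9.51, 11.1 and 11.1 CPM in cGAS-KO libraries, with no overlap (log2 change 0.39 ± 0.10 SE, adjusted p = 0.0567). Its averaged effect was 0.29 ± 0.07 (SE, adjusted p = 0.0196), lost without WT replicate 2, WT replicate 3, HD replicate 1, HD replicate 2 or cGAS-KO;HD replicate 2. Bag2, which blocks the ubiquitin ligase CHIP, measured 6.60, 7.56 and 7.15 CPM in HD against 6.48, 6.44 and 5.38 CPM in WT libraries, and 8.04, 9.03 and 8.35 CPM in cGAS-KO;HD against 5.88, 4.67 and 7.19 CPM in cGAS-KO libraries. Neither pair overlapped, and the averaged effect was 0.37 ± 0.11 (SE, adjusted p = 0.0392), a call kept only without WT replicate 1 or without cGAS-KO replicate 3 among the 12 fits with a library left out. The other 4 Bag genes had negative averaged changes, between -0.21 (Bag5) and -0.05 (Bag1), and edgeR called none. Bag5 missed the threshold (adjusted p = 0.0561) and was called lower by DESeq2's Wald test, with a filter of 1 CPM in 3 libraries, without WT replicate 1 and without cGAS-KO replicate 3. Bag5 measured 49.8, 51.4 and 47.0 CPM in HD against 50.4, 54.1 and 61.0 CPM in WT libraries (log2 change -0.16 ± 0.09 SE, adjusted p = 0.39). Bag1 measured 71.2, 75.4 and 79.7 CPM in HD against 71.6, 78.1 and 77.4 CPM in WT libraries (log2 change -0.01 ± 0.07 SE, adjusted p = 0.978).

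The small heat shock proteins of the Hspb family were at low levels. Hspb2 was the only one of the 6 called in the averaged comparison, where 5.59% of all genes tested were called higher. Hspb2, known from muscle, measured 0.350, 0.497 and 0.410 CPM in HD against 0.208, 0.188 and 0.242 CPM in WT libraries, or 90 counts over the HD group and 42 over the WT group. In cGAS-KO;HD libraries it measured 0.452, 0.499 and 0.584 CPM, against 0.308, 0.223 and 0.407 CPM in cGAS-KO libraries. Neither pair overlapped, and the averaged effect was 0.84 ± 0.23 (SE, adjusted p = 0.0324), kept in 4 of 12 fits with a library left out. Those fits were without WT replicate 1, HD replicate 1, cGAS-KO replicate 3 or cGAS-KO;HD replicate 1. Of the exon length of Hspb2, 30.2% overlaps Cryab on the opposite strand. Cryab, the abundant small heat shock protein alpha B crystallin, averaged 138 ± 5.14 CPM in HD and 119 ± 14.0 CPM in WT libraries (SD, n = 3 each), with an averaged knock-in effect of 0.24 ± 0.08 (SE, adjusted p = 0.0783). The library kit was directional, but the strand setting of the counting is not given, so reads of Cryab and Hspb2 cannot be told apart. Hspb1, a stress-inducible small heat shock protein, measured 1.60, 1.75 and 1.93 CPM in HD against 2.91, 2.29 and 1.44 CPM in WT libraries (log2 change -0.33 ± 0.23 SE, adjusted p = 0.5). Hspb8, the partner of Bag3, measured 14.5, 16.2 and 11.2 CPM in HD against 15.1, 11.4 and 11.1 CPM in WT libraries (log2 change 0.15 ± 0.17 SE, adjusted p = 0.695). The largest log2 difference of all members in HD against WT was that of Hspb3, at -1.66 ± 0.66 (SE, adjusted p = 0.19), which rests on 35 counts over the HD group and 104 over the WT group.

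The heat-inducible members included genes of both directions. A list of 14 members known as HSF1 targets had 1 called higher in HD against WT (Hsp90aa1) and 3 in the averaged comparison (Bag3, Hsp90aa1 and Hspa8), with none called lower; 1.43% and 5.59% of all genes tested were called higher. At an unadjusted p under 0.05 the averaged comparison had 7 higher and 1 lower, where 2822 and 3033 of the 21309 genes tested were. DESeq2's Wald test called 4 higher and 1 lower, Hspa1b. In HD against WT, 11 of the 14 were positive, where 52.0% of all genes tested and 69.5% of all members were. The median log2 change of the 14 was 0.17, against 0.06 over all members. In 7 of the 14 every HD library lay above every WT library, and in 1, Hspa1a, below, where 14.6% and 13.1% of all genes tested had such an order. The classical stress genes Hspa1a, Hspa1b and Hspb1 were the 3 negative ones. In cGAS-KO;HD against cGAS-KO the median was 0.07 and the range -0.64 to 0.39. The summed level of the 14 genes, most of it from Hspa8, Hsp90aa1 and Hsp90ab1, was 5755 to 6062 CPM in HD and 5986 to 6222 CPM in cGAS-KO;HD libraries, against 5293 to 6369.6 CPM in cGAS-KO and 5028 to 5087 CPM in WT libraries. The highest of these was cGAS-KO replicate 3, and the other 2 cGAS-KO libraries were at 5293 and 5297 CPM.

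**Figure D4:**
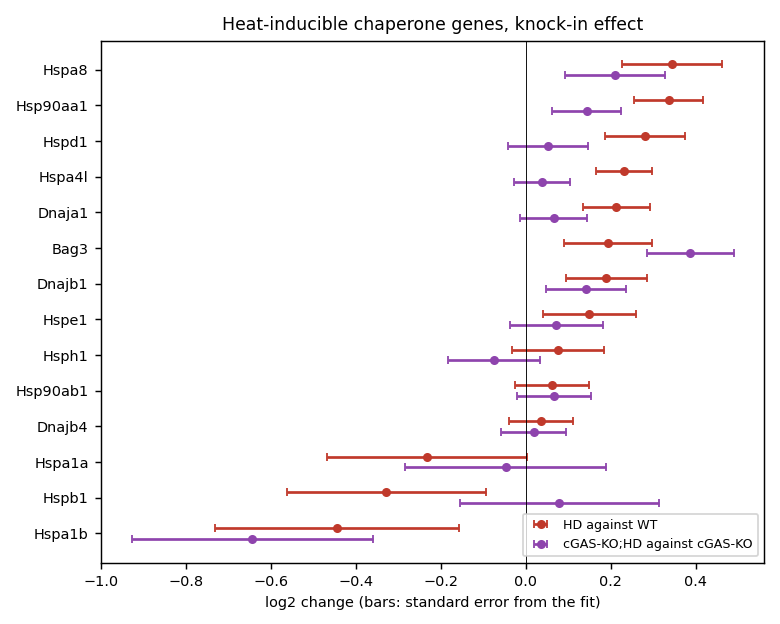
Log2 change of 14 heat-inducible chaperone genes in HD against WT (red) and in cGAS-KO;HD against cGAS-KO (purple), with bars for the standard error of the fit; genes are ordered by the first. Hspa8 and Hsp90aa1 lead at 0.34, and Hspa1b is lowest in both, at -0.44 and -0.64.

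Of a list of 8 members of the endoplasmic reticulum, Hspa13 alone was called in the averaged comparison, where 5.59% of all genes tested were called higher. Averaged log2 changes over the list ran from -0.03 to 0.25. The list held Hspa5, Hspa13, Hsp90b1, Dnajb9, Dnajb11, Dnajc1, Dnajc3 and Dnajc10 and may not hold every member of that organelle. A list of 20 genes of the unfolded protein response in that organelle had none called higher and 2 lower in the averaged comparison. That is close to the 7.63% of all genes tested that were called lower. At an unadjusted p under 0.05, 3 of the 20 were higher and 4 lower, where 2822 and 3033 of the 21309 genes tested were. DESeq2's Wald test called 1 higher and 2 lower. The 2 that fell were Atf6, a sensor of that response, and Trib3, a stress-induced pseudokinase. Atf6 measured 70.1, 61.7 and 56.5 CPM in HD against 70.3, 84.7 and 96.0 CPM in WT libraries, and its averaged effect was -0.45 ± 0.11 (SE, adjusted p = 0.0232). Trib3, a rare transcript, measured 0.378, 0.380 and 0.238 CPM in HD against 1.16, 0.634 and 0.953 CPM in WT libraries, with an averaged effect of -1.27 ± 0.29 (SE, adjusted p = 0.0117). Ddit3 (CHOP), the stress factor upstream of Trib3, measured 16.5, 16.3 and 16.1 CPM in HD against 16.5, 17.1 and 18.2 CPM in WT libraries (log2 change -0.08 ± 0.08 SE, adjusted p = 0.647). A mitochondrial list held Hspa9, Hspd1, Hspe1, Dnaja3, Dnajc11, Dnajc15 and Dnajc19 and may not hold every mitochondrial member. All 7 of these genes had a positive averaged effect, with a median of 0.10, where 52.1% of all genes tested and 62.2% of all members were positive. Dnajc15 was the 1 called, where 5.59% of all genes tested were called higher. Their summed level was 721 to 731 CPM in HD and 676 to 723 CPM in cGAS-KO;HD libraries, against 641 to 681 CPM in cGAS-KO and 625 to 669 CPM in WT libraries.

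cGAS-KO;HD against cGAS-KO asks what the knock-in does when cGAS is absent, in 6 libraries that HD against WT does not use. No member was called, where 1.44% of all genes tested were called higher and 2.52% lower. At an unadjusted p under 0.05, 7 members were higher and 5 lower, where 1743 and 1967 of the 21309 genes tested were. These member counts do not stand out from all genes. DESeq2's Wald test called 2, Bag2 and Bag3, both higher. In 10 members every cGAS-KO;HD library lay above every cGAS-KO library and in 4 below, against 10.8% and 10.7% of all genes tested. The count was 5 without cGAS-KO replicate 3 (Bag2, Bag3 and Hspa8 higher, Bag5 and Dnajc7 lower) and 1, Bag3, without WT replicate 1. For the CCT genes the median was 0.14, with all 8 positive, where 50.5% of all genes tested were. The libraries did not overlap, with cGAS-KO;HD higher, for Cct3, Cct6a and Cct6b, where 10.8% of all genes tested had such an order. Of the 82 members, 41 were higher and 17 lower in both knock-in comparisons and 24 differed in sign, so that 70.7% had the same sign, against 70.9% of all genes tested. The groups did not overlap in the same direction in both comparisons for 9 members, of which Bag2, Cct3, Cct6a, Dnajc12, Hsp90aa1, Hspa13 and Hspb2 were higher and Dnajc2 and Dnajc7 lower; 4.8% and 5.37% of all genes tested had such an order upwards and downwards in both. Dnajc7, which links Hsp70 and Hsp90, measured 186, 181 and 186 CPM in HD against 189, 201 and 203 CPM in WT libraries and 179, 176 and 179 CPM in cGAS-KO;HD against 219, 206 and 183 CPM in cGAS-KO libraries, with an averaged effect of -0.14 ± 0.05 (SE, adjusted p = 0.0799); DESeq2's Wald test called it lower.

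**Figure D5:**
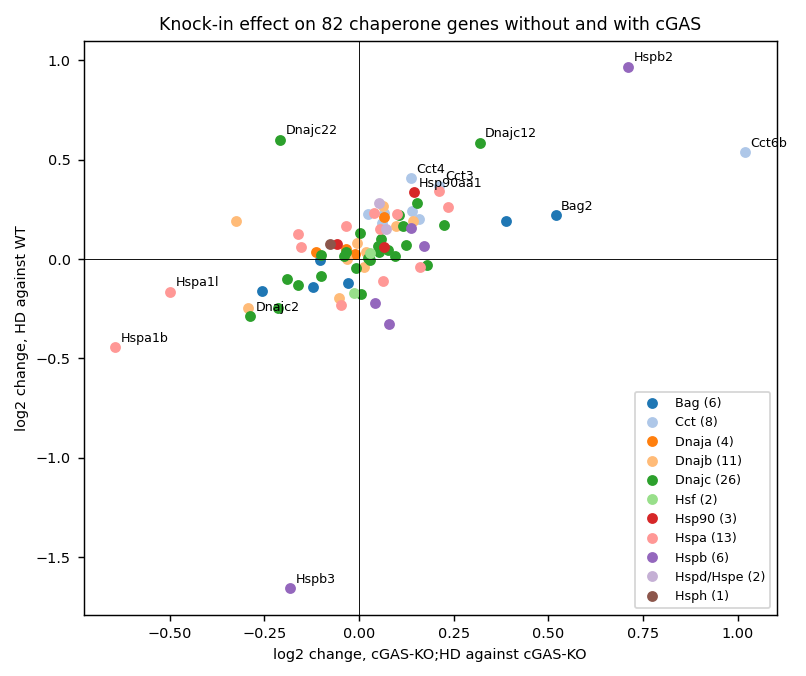
Log2 change of the 82 members in HD against WT (vertical) and in cGAS-KO;HD against cGAS-KO (horizontal), coloured by family with the number of members in brackets. The 8 Cct genes all lie above and to the right of both zero lines; Hspb3 (-1.66 in HD against WT) and Cct6b (1.02 in cGAS-KO;HD against cGAS-KO), which lie farthest out, have few counts.

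Loss of cGAS left no called member, in either Htt genotype. In cGAS-KO;HD against HD, edgeR called none of the 82 and 0.00469% of all genes tested, and DESeq2's Wald test called no member. None of the 82 had an unadjusted p under 0.05, where 519 of the 21309 genes tested were higher and 713 lower at that level. In 10 members every cGAS-KO;HD library lay above every HD library and in 10 below, where 8.76% and 8.33% of all genes tested had such an order. The smallest p was that of Cct2, which measured 128, 124 and 129.9 CPM in cGAS-KO;HD against 136, 135 and 145 CPM in HD libraries (log2 change -0.12 ± 0.07 SE, adjusted p = 0.757). The log2 change was 0.15 ± 0.12 for Hspa8, -0.07 ± 0.08 for Hsp90aa1, -0.06 ± 0.08 for Cct3 and -0.20 ± 0.13 for Dnajc12 (SE). In cGAS-KO against WT edgeR called no member and 0% of all genes tested, and DESeq2's Wald test called no member. At an unadjusted p under 0.05 there was 1 member, Hspa8 (0.031), where 419 of the 21309 genes tested were higher and 494 lower. Hspa8 measured 1584, 1604 and 2198 CPM in cGAS-KO against 1482, 1489.8 and 1449 CPM in WT libraries, a change of 0.28 ± 0.12 (SE, adjusted p = 0.919), and cGAS-KO replicate 3 was the highest of the 6. In 8 members the cGAS-KO libraries lay above the WT libraries and in 2 below, against 4.25% and 4.53% of all genes tested. Averaged over both Htt genotypes, the cGAS effect was called for none of the 82 members by either tool and for 0% of all genes tested by edgeR. At an unadjusted p under 0.05, 4 members were higher (Hspa8, Hspa13, Dnajc13 and Dnajb4) and 1 lower (Hspa12b). Of the 21309 genes tested, 976 were higher and 863 lower at that level, so these member counts do not stand out from all genes.

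Whether the knock-in effect differed with and without cGAS was tested as an interaction, the change in cGAS-KO;HD against cGAS-KO minus that in HD against WT. It was called for none of the members by edgeR or DESeq2's Wald test, and by edgeR for 0.00469% of all genes tested. No member had an unadjusted p under 0.05, where 307 of the 21309 genes tested were positive and 299 negative at that level. The smallest p was that of Cct2, at -0.20 ± 0.09 (unadjusted p = 0.0515, adjusted p = 1.00). For Cct4 the difference was -0.27 ± 0.13, for Hsp90aa1 -0.19 ± 0.12, for Dnajc12 -0.27 ± 0.18, for Hspa13 -0.03 ± 0.10 and for Bag3 0.19 ± 0.15. With 3 mice a group, the missed threshold does not show that the knock-in effects were alike.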

How the data were processed

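Counts of reads per Ensembl gene were deposited by the authors for 12 libraries of poly(A) RNA, with directional library preparation (per the labels' protocols). The sources used here name no aligner, genome build, annotation or counting rule. Symbols, positions and exon lengths came from GENCODE M21 (GRCm38), and Cct6a, not protein coding there, was kept since RefSeq lists it so. Sample titles gave the group and replicate number.

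Genes were filtered with filterByExpr (minimum count 10, minimum total 15), scaled by TMM and fitted with edgeR's robust quasi-likelihood model over all 12 libraries (1 mean a group, 8 residual degrees of freedom), with Benjamini-Hochberg adjustment over 21309 genes and a threshold of 0.05. Errors are standard errors for log2 changes and standard deviations for CPM. The steps were tested on simulated counts. The tools were edgeR 4.0.16 and DESeq2 1.42.0 under R 4.3.3.

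The members, the lists and the 2 libraries left out together (WT replicate 1 and cGAS-KO replicate 3) were chosen with earlier results of these data known. Named with values were every member called in any of the 7 comparisons, in each family the most abundant member per kilobase and the one with the smallest p for the averaged knock-in effect, 18 members regardless of values, the largest change of each comparison, and genes of the further lists called between 2 groups. Cct7, Hspa4, Hspa4l, Hspa9, Hspe1, Bag5, Dnajb5, Dnajc7, Tcp1, Cryab, Ddit3 and the genes of further lists called only for the averaged effect were named after their values were seen. A result of the Hsp90 co-chaperone list is not reported here. Alternatives were DESeq2 size factors, DESeq2's Wald test, other count filters, the replicate number as a block, a term for Xist and libraries left out.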

Additional observations from a re-analysis of the deposited data

How the results depend on the processing

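In HD against WT, 4 members were called. The count was 4 with DESeq2 size factors and with either other filter, 3 with an Xist term, 9 with DESeq2's Wald test, 20 without WT replicate 1 and cGAS-KO replicate 3, and 0 to 14 with single libraries left out. In cGAS-KO;HD against cGAS-KO the main count of 0 became 2 with the Wald test, 1 with a filter of 1 CPM in 3 libraries, 5 with the 2 libraries left out and 0 to 5 with single libraries left out. For the averaged knock-in effect the main count of 14 became 13 with DESeq2 size factors, 11 with no low-count filter, 19 with the Wald test, 10 with an Xist term, 20 with the 2 libraries left out and 6 to 18 with single libraries left out. With the replicate block the counts were 0 in HD against WT and 9 for the averaged effect, but same-numbered libraries did not deviate together (correlations of -0.231 to 0.203), and 2 of 12 libraries correlated best with their own number, so the numbers were not taken as pairs. No called change of a named gene reversed under any alternative run, DESeq2's Wald test moved 8 gene values past the threshold and none back, and an Xist term moved 6 back and 1 past it. The remaining 4 comparisons, all on the loss of cGAS, had 0 called members under every alternative. The cause of these shifts was not tested. Depth limits the rarest members, such as Hspb2, Hspb3 and Cct6b.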
